A study of Mus musculus with 15 samples.

Results

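Short structured noncoding RNAs were followed in erythroid progenitors of the mouse fetal liver. They were 8 RNAs that act by folding rather than by being translated: Rpph1, Rmrp, Rn7sk, Scarna10, Scarna2, Terc, Rny1 and Rny3. They were taken by gene name from the table of the total RNA libraries, where they filled 10 of 55487 mouse gene rows, since Rmrp and Terc each had 2 rows. The 8 rows of Rpph1, Rmrp, Rn7sk, Scarna10, Scarna2 and Terc held counts, and the rows of Rny1 and Rny3 were at 0 in every library. The members were chosen by their name and their presence in this table, with earlier results of these data known, so presence and level are given as description.

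The libraries came from E12.5 embryos of strain 129S6/SvEvTac. Group 1 of the mice was sequenced as polyA RNA, with 3 libraries each of wildtype and mutant. Group 2 was sequenced as total RNA, with 3 libraries each of wildtype, mutant and low-yield mutant. The mutation lies in Rpl5, which encodes a large subunit ribosomal protein. The library list of group 2 writes Rpl5plusSkax23Jus, which reads as a wildtype copy beside a Skax23Jus copy. The label "low-yield" is not defined in the sources used here. Loss of a ribosomal protein copy is a cause of Diamond Blackfan anemia, the subject that the series title names. The labels do not say whether the libraries of a group came from separate embryos or from pools, so p-values measure only the spread between these libraries, which may be technical.

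Total counts were 24954324 to 44827821 per library in group 2 and 48510828 to 58513669 in group 1. Levels are given in CPM, which are counts scaled to library size after TMM normalisation. Rpl5 itself was at 324, 303 and 374 CPM in wildtype libraries of group 2, at 232, 248 and 248 CPM in mutants and at 243, 219 and 278 CPM in low-yield mutants, so every library carrying a mutant label was below every wildtype library. The 11 erythroid markers checked were all present. Their summed level was 7450 to 13800 CPM in wildtype, 4660 to 5560 CPM in mutant and 4020 to 5420 CPM in low-yield mutant libraries.

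Most of these RNAs are made by RNA polymerase III from short genes with promoters outside the transcribed sequence. Rpph1 is the catalytic RNA of RNase P, which trims the 5′ leader from transfer RNA precursors, and Rmrp is its relative in RNase MRP, which takes part in ribosomal RNA processing. Rn7sk binds Hexim proteins and holds the elongation kinase P-TEFb inactive. Scarna10 and Scarna2 are Cajal body RNAs that guide modification of spliceosomal RNAs, Terc carries the template for telomere synthesis, and Rny1 and Rny3 are Y RNAs, which bind the Ro60 protein. Most of these RNAs end without a poly(A) tail, and they turn up in libraries made from total RNA more than in libraries selected for poly(A).

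Sequences of the GENCODE M21 transcripts on GRCm38 are printed as DNA, whole up to 300 bases and otherwise as a stretch of 150 bases. Rpph1 (ENSMUSG00000092837, chr14:50807449-50807767, minus strand) and Rmrp (ENSMUSG00000088088, chr4:43492788-43493058, minus strand) are shown because they are relatives; of Rpph1, bases 1 to 150 are given. The capitals mark CAGCGGGGC, 1 of 2 runs of 9 letters that tie as the longest they share, which starts at position 17 of Rpph1 and position 183 of Rmrp. The other starts at position 246 of Rpph1, outside the stretch shown, and position 221 of Rmrp.
Rpph1: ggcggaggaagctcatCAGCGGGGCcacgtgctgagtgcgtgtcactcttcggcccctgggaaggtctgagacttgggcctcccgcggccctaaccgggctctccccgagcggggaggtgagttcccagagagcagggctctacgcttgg
Rmrp: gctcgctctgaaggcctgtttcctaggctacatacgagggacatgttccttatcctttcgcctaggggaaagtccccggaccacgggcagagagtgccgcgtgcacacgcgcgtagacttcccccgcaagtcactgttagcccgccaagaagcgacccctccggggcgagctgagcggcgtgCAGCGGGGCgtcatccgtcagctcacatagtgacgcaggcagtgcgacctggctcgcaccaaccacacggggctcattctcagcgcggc

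Rpph1 is 319 nt long with a GC content of 67.1%, and Rmrp is 271 nt long with 64.2%. Folded by RNAfold, their minimum free energies were -47.0 and -39.2 kcal/mol per 100 nt. Of the 319 bases of Rpph1, 233 lie in an exon of Ccnb1ip1 on the same strand, and Parp2 lies 74 bp away on the plus strand. The second Rmrp row (ENSMUSG00000115420, chr4:43492783-43493063, 281 nt) covers all of the first, and 124 of its bases lie opposite an exon of Ccdc107. The files cannot show how reads were split between the Rmrp rows, so their sum is used for levels.

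Rn7sk (ENSMUSG00000065037, chr9:78175303-78175633, minus strand, 331 nt) is shown by its bases 182 to 331. The capitals mark its last letters, TTT, the kind of run at which RNA polymerase III stops. Rny1 and Rny3 end the same way, and 2.0% of 13062 annotated transcripts of 250 to 450 nt do.
Rn7sk: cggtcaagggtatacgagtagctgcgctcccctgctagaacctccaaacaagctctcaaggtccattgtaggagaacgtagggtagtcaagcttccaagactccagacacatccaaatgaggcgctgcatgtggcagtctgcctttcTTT

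Scarna10 (ENSMUSG00000089617, chr6:125186359-125186683, minus strand, 325 nt) and Scarna2 (ENSMUSG00000088185, chr3:108554338-108554751, minus strand, 414 nt) are shown because their values differed within one RNA class, Scarna10 by bases 1 to 150 and Scarna2 by bases 265 to 414. The capitals mark TGATGA, the core of the box C element, searched on the transcript strand. It starts at position 7 of Scarna10 and position 346 of Scarna2. It also occurs in 20.0% of the annotated transcripts of 250 to 450 nt, so the match is a description only.
Scarna10: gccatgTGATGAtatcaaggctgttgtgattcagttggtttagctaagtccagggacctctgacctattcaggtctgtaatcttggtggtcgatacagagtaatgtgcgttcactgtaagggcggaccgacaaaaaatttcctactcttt
Scarna2: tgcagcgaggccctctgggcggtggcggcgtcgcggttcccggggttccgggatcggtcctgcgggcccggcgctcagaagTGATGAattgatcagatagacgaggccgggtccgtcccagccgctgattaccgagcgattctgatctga

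Of the Scarna10 bases, 237 lie in an exon of Ncapd2 on the same strand, and 281 lie in Gm28967, a sense intronic gene. RefSeq annotates shorter RNAs at both loci, 71 nt at Scarna10 and 61 nt at Scarna2, so levels per length depend on the annotation used. Terc (ENSMUSG00000064796, chr3:96414437-96414859, minus strand, 423 nt) holds CTAACCC, the template of the telomere repeat, at position 29, as do 138 of the 13062 transcripts (1.1%). Its other row, ENSMUSG00000118406, is absent from GENCODE M21 and has no coordinates here.

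The Y RNAs are the shortest members and are shown as the ones with no counts. Rny1 (ENSMUSG00000065701, chr6:47788069-47788180, minus strand, 112 nt) and Rny3 (ENSMUSG00000064945, chr6:47781624-47781725, plus strand, 102 nt) are neighbours. The capitals mark their longest shared run, CAGTTACAGATT, at position 46 of Rny1 and position 45 of Rny3.
Rny1: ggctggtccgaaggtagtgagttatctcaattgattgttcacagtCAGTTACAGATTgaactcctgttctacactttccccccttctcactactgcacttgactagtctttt
Rny3: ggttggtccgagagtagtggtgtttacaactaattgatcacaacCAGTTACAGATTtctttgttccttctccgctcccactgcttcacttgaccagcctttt

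In wildtype total RNA the members together took 0.5976%, 0.6527% and 0.6175% of all counts. Their share was 0.5159%, 0.5183% and 0.4307% in the mutant and 0.2306%, 0.1965% and 0.3205% in the low-yield mutant. The ranges of the 3 groups did not overlap. In CPM, the sum was 6326 ± 224 in wildtype, 4869 ± 486 in mutant and 2463 ± 638 in low-yield mutant libraries (SD, n = 3), the last being 38.9% of the wildtype mean. In bulk RNA, fewer cells of a type and less RNA per cell cannot be told apart. Nearly all of this sum was Rpph1 and Rn7sk.

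**Figure D1:**
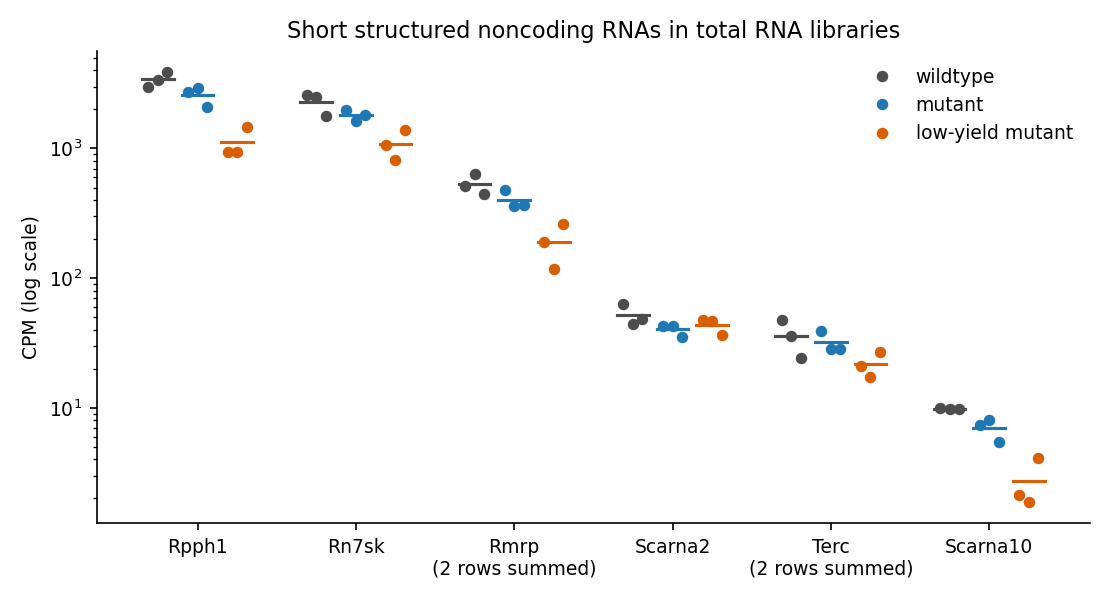
Level of each RNA that had counts in the 9 total RNA libraries of group 2, in CPM on a log scale, with 1 point per library and a bar at the mean of 3 libraries. Rpph1, Rn7sk, Rmrp and Scarna10 lie lowest in the low-yield mutant, while the Scarna2 points of the 3 groups lie close together.

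Per kilobase of annotated length, wildtype levels ran from Rpph1 at 10690 ± 1383 CPM per kb, through Rn7sk at 6913 ± 1378 and Rmrp (its sum over the 271 nt of the first row) at 1958 ± 349, to Scarna2 at 125.2 ± 24.7 and Scarna10 at 30.3 ± 0.26 (SD, n = 3). Neighbours in this order did not overlap in wildtype. Terc has no settled place in it, since most of its counts sit in the row with no annotated length. Over the 423 nt of its other row, the Terc sum came to 84.7 ± 27.6 CPM per kb and that row alone to 9.80 ± 5.99 (SD, n = 3). In the low-yield mutant, Rpph1 at 3500 ± 943 and Rn7sk at 3291 ± 859 CPM per kb overlapped.

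The catalytic RNA Rpph1 was at 2994, 3360 and 3874 CPM in wildtype, 2734, 2938 and 2092 CPM in mutant and 947, 938 and 1464 CPM in low-yield mutant libraries. Each group lay below the one before it with no overlap. The low-yield mean of 1117 ± 301 CPM was 32.8% of the wildtype mean of 3409 ± 442 CPM (SD, n = 3). By edgeR's quasi-likelihood test, adjusted over 15024 genes, the log2 fold change of the low-yield mutant against wildtype was -1.61 (SE 0.202, adjusted p = 0.00144). Against the mutant it was -1.21 (SE 0.200, adjusted p = 0.966), and that of the mutant against wildtype was -0.40 (SE 0.197, adjusted p = 0.305). Ccnb1ip1, whose exon shares bases with Rpph1, was at 26.7 to 39.7 CPM in wildtype and 18.9 to 29.4 CPM in the low-yield mutant, with a log2 fold change of -0.57 (adjusted p = 0.112).

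Rmrp, with its rows summed, was at 515, 632 and 445 CPM in wildtype, 481, 357 and 369 CPM in mutant and 188, 118 and 260 CPM in low-yield mutant libraries. All low-yield libraries were below all others, and mutant and wildtype overlapped. The low-yield mutant differed from wildtype by a log2 fold change of -1.46 in the first Rmrp row (SE 0.300, edgeR adjusted p = 0.0225) and -1.55 in the second (SE 0.316, adjusted p = 0.0223). The first row held 68.6% to 71.2% of Rmrp counts in wildtype and 68.3% to 76.4% in the low-yield mutant. Leaving out any 1 wildtype library or low-yield replicate 1 ended both calls, with adjusted p from 0.0520 to 0.0970. A fit of only the 6 libraries compared ended the call of the second row (adjusted p = 0.0577). Ccdc107, on the opposite strand, was at 10.5 to 15.3 CPM across the 9 libraries.

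The ratio of the RNase MRP to the RNase P RNA overlapped between the groups. Rmrp over Rpph1 averaged 0.158 ± 0.038 for wildtype, 0.158 ± 0.032 for the mutant and 0.167 ± 0.038 for the low-yield mutant (SD, n = 3). Its mean log2 value in the low-yield mutant was 0.08 above wildtype (exact permutation p = 0.6, two-sided). The spread of this ratio was wide, from 0.115 to 0.199 over the 9 libraries, so a modest difference would not be seen.

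Rn7sk, the P-TEFb regulator, was at 2599, 2501 and 1765 CPM in wildtype, 1978, 1618 and 1804 CPM in mutant and 1072, 814 and 1382 CPM in low-yield mutant libraries. The low-yield libraries were again below all others, while mutant and wildtype overlapped. The low-yield mean was 47.6% of wildtype, with a log2 fold change of -1.07 (SE 0.209, edgeR adjusted p = 0.0125). Among the settings that ended the call were leaving out wildtype replicate 1 (adjusted p = 0.0518), leaving out low-yield replicate 1 (0.0578) and using no filter on low counts (0.0532).

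The scaRNAs gave different values. Scarna10 was at 9.93, 9.77 and 9.85 CPM in wildtype, 7.42, 8.03 and 5.45 CPM in mutant and 2.14, 1.89 and 4.12 CPM in low-yield mutant libraries. The 3 groups did not overlap, and the wildtype libraries nearly coincided. Scarna10 rested on 62 to 442 counts per library in group 2. The wildtype values lay closer together than counting error alone would place them, so their closeness is not read as precision. Its log2 fold change in the low-yield mutant against wildtype was -1.81 (SE 0.251, edgeR adjusted p = 0.000397). Ncapd2, whose exon shares bases with Scarna10, was at 584 to 604 CPM in wildtype and 545 to 586 CPM in the low-yield mutant, with a log2 fold change of -0.07 (adjusted p = 0.557). How reads were split between Scarna10 and Ncapd2, or between Rpph1 and Ccnb1ip1, is not known.

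Scarna2 was at 63.4, 43.9 and 48.2 CPM in wildtype, 43.1, 43.1 and 35.1 CPM in mutant and 47.8, 47.1 and 36.3 CPM in low-yield mutant libraries. Low-yield and wildtype libraries overlapped. The log2 fold change was -0.25 (SE 0.144, edgeR adjusted p = 0.303) in the low-yield mutant against wildtype and 0.11 (SE 0.146, adjusted p = 1) against the mutant. Every mutant library was below every wildtype library, at -0.36 (SE 0.145, adjusted p = 0.167), which did not pass the test. Without wildtype replicate 1, the highest of its group, these values against wildtype were -0.07 in the low-yield mutant and -0.19 in the mutant. Voom also gave -0.07 in the low-yield mutant, and without low-yield replicate 3 the value was -0.12.

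Terc, with its rows summed, was at 47.7, 35.5 and 24.3 CPM in wildtype, 38.8, 28.5 and 28.4 CPM in mutant and 21.1, 17.2 and 27.0 CPM in low-yield mutant libraries. Wildtype overlapped with both mutant groups, and every low-yield library was below every mutant library. The row ENSMUSG00000118406 held 81.8% to 94.0% of Terc counts in wildtype. Its log2 fold change in the low-yield mutant against wildtype was -0.71 (SE 0.254, edgeR adjusted p = 0.103), and that of ENSMUSG00000064796 was -0.60 (SE 0.438, adjusted p = 0.427). DESeq2 called the first of these (adjusted p = 0.00914), as did voom (0.0240). The values turned on single libraries. Without wildtype replicate 3 both rows were called by edgeR, at -0.91 (adjusted p = 0.0387) and -1.07 (0.0380), and ENSMUSG00000118406 was also called without low-yield replicate 3 (0.0478). Without wildtype replicate 2 the value of ENSMUSG00000064796 was -0.09, and without wildtype replicate 1 that of ENSMUSG00000118406 was -0.42.

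Rny1 and Rny3 were at 0 in all 15 libraries. At the depth of these libraries, 3 counts would be 0.0513 to 0.120 CPM, the limit that a count of 0 allows for counting error alone. Other short RNAs were scarce too. Of 2152 annotated small noncoding genes under 100 nt, none had a count in group 2, and of 3199 genes from 100 to below 150 nt, 26 had any count and none reached 1 CPM. Among 349 genes of 250 to 450 nt, 64 had counts and 12 reached 1 CPM, with a summed mean of 12144.6 CPM.

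Counted by row, the mutant against wildtype contrast of group 2 called 0 of 8 rows by edgeR, while 6.27% of all 15024 genes tested were called. The log2 fold changes were below 0 in 7 of 8 rows, with a median of -0.35 against -0.01 for all genes. At an unadjusted p under 0.05 there were 2 rows, Scarna10 and Scarna2, and 3071 of the 15024 genes, so that share was near the background. DESeq2 called 0 rows, beside 1389 calls over all genes. Voom with quality weights called 2 rows, Rpph1 (adjusted p = 0.0267) and Scarna10 (0.0303), beside 1928 calls over all genes. Every mutant library was below every wildtype library in 3 rows, as in 11.8% of all genes.

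The low-yield mutant against wildtype contrast called 5 of 8 rows, all lower, where 12.54% of all genes were called and 5.86% were called lower. The rows were those of Rpph1, Rn7sk, Rmrp (both) and Scarna10. The same 5 rows had every low-yield library below every wildtype library, as did 14.6% of all genes. The median over the 8 rows was -1.27, and over all genes it was 0. The 2 contrasts share their wildtype libraries. Rpph1 and Scarna10 kept their call in every alternative run, with adjusted p up to 0.0132 and 0.00341. The count of called rows fell to 2 without wildtype replicate 1 or without low-yield replicate 1, and to 3 without wildtype replicate 2.

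The low-yield mutant against mutant contrast called 0 of 8 rows by edgeR, and 0% of all genes, with 480 of 15024 genes at an unadjusted p under 0.05. Among the 8 rows, 5 had such a p. Ranked by p over all genes tested by edgeR, Rpph1 stood at 2 and Scarna10 at 3, with log2 fold changes of -1.21 and -1.29 and an adjusted p of 0.966 each. In 7 of 8 rows, Scarna2 being the exception, every low-yield library was below every mutant library, where 4.15% of all genes were. DESeq2 called 2 of the rows, Rpph1 (adjusted p = 0.00293) and Scarna10 (0.00498), and voom called 3. Without low-yield replicate 3, the highest of its group in Rpph1, Rmrp, Rn7sk and Scarna10, edgeR called 3 rows.

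**Figure D2:**
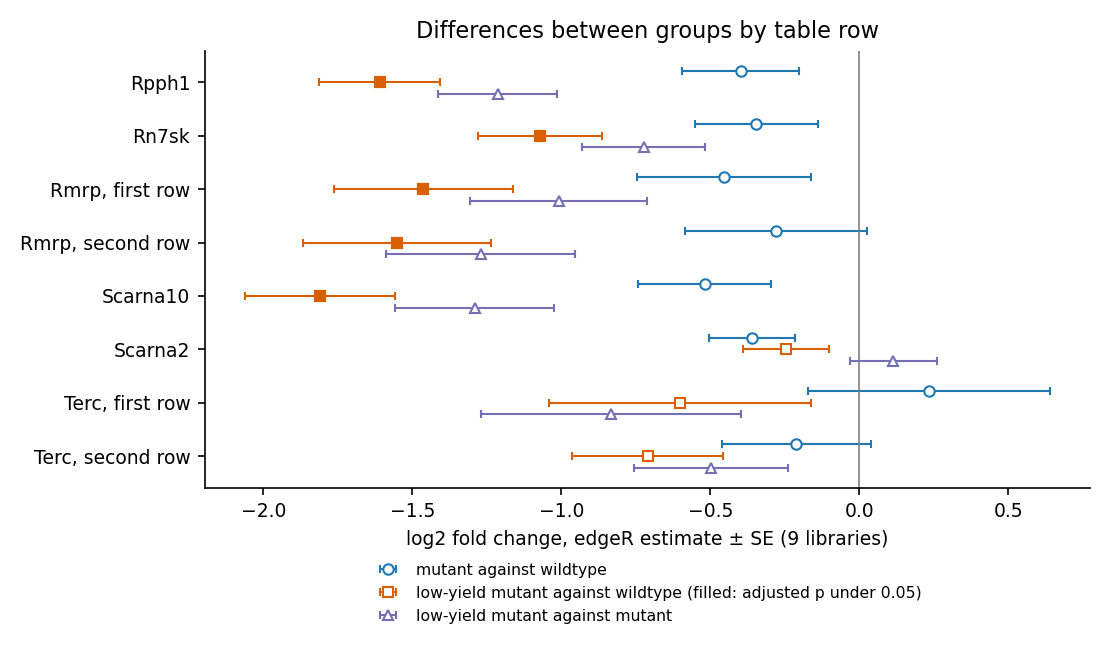
Log2 fold change of each row, with its standard error, in the 3 contrasts of group 2 fitted by edgeR over 9 libraries. Filled squares mark the 5 rows of the low-yield mutant against wildtype with an adjusted p under 0.05, and Scarna2 lies nearest 0 in that contrast.

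Ratios within a library do not depend on library scaling. Rpph1 over Scarna2 was 47.2, 76.5 and 80.3 for wildtype, 63.5, 68.2 and 59.6 for the mutant, and 19.8, 19.9 and 40.3 for the low-yield mutant. All low-yield values were below all others. Scarna10 over Scarna2 was 0.157 to 0.222 in wildtype and 0.0401 to 0.113 in the low-yield mutant. Rmrp over Scarna2 was 8.13 to 14.4 in wildtype and 2.5 to 7.15 in the low-yield mutant. Each of these 3 ratios gave an exact two-sided permutation p = 0.1 between low-yield mutant and wildtype, the smallest that 3 against 3 libraries can give, and p = 0.3 after adjustment over the 30 ratio comparisons made.

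Rn7sk over Scarna2 overlapped between low-yield mutant and wildtype, at 17.3 to 38.0 and 36.6 to 56.9 (exact permutation p = 0.2). Rmrp over Rn7sk was 0.198 to 0.253 in wildtype and 0.145 to 0.188 in the low-yield mutant, with no overlap (exact permutation p = 0.1, 0.3 adjusted). Terc over Rn7sk was 0.0138 to 0.0183 in wildtype and 0.0195 to 0.0211 in the low-yield mutant, the reverse order (exact permutation p = 0.1, 0.3 adjusted). None of these differences could pass, since the design is too small. The ratios were chosen after their values were seen.

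**Figure D3:**
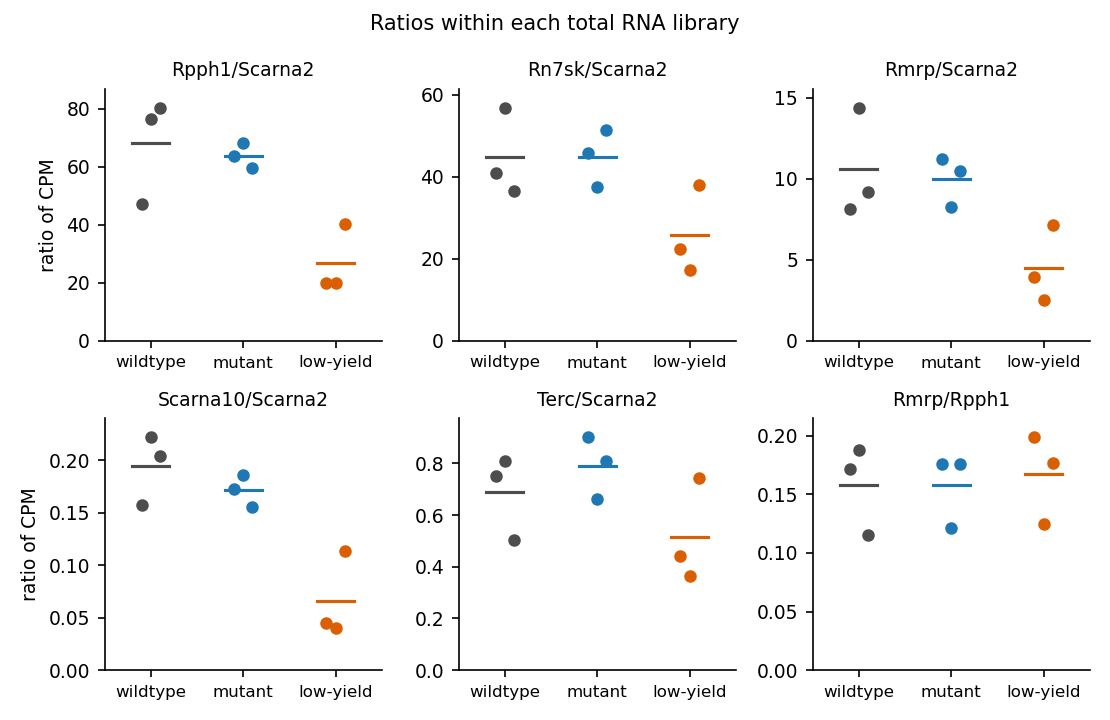
Ratio of CPM between pairs of RNAs within each total RNA library of group 2, with 1 point per library and a bar at the mean of 3 libraries. The ratios of Rpph1, Rmrp and Scarna10 to Scarna2 are lower in every low-yield library than in every other one, and Rmrp to Rpph1 overlaps across groups.

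Across the 9 total RNA libraries, log2 levels of Rpph1 and Scarna10 correlated with Pearson's r 0.99 and those of Rn7sk and Rmrp with r 0.98. Scarna2 had r from 0.11 to 0.27 with the other 5. These values describe 9 libraries that share 3 groups, so part of each r comes from the groups. On deviations from the group means, Rpph1 and Scarna10 had r 0.90, Rn7sk and Rmrp 0.90, Rn7sk and Terc 0.90, and Rpph1 and Rn7sk 0.23.

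Over the same 9 libraries and 9758 genes, the named genes with the pattern most like Rpph1 were Srebf2 (r 0.984) and Aplp2 (0.980). For Scarna10 they were Srebf2 (0.979) and the histone gene H4c11 (0.976), and for Rmrp they were Kctd7 (0.964) and H4c11 (0.960). For Rn7sk they were Maf1 (0.955), a repressor of RNA polymerase III, and the histone gene H3c13 (0.945). Scarna2 was most like Brf1 (0.947), a polymerase III initiation factor, and Gigyf1 (0.946), and Terc most like Pmf1 (0.963) and Dhrs1 (0.922). The highest r among 9758 genes over only 9 libraries is high by selection alone. These values carry no test, and no link between the genes is read from them.

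Other small noncoding RNAs of similar length were measured in the same libraries. Rn7s1 and Rn7s2, the RNA of the signal recognition particle, summed to 8710 to 9330 CPM in wildtype, 8420 to 10700 CPM in mutant and 3100 to 5970 CPM in low-yield mutant libraries. Their rows had log2 fold changes of -1.30 (edgeR adjusted p = 0.0936) and -0.74 (adjusted p = 0.402) in the low-yield mutant, and reads may have been split between these near-identical genes. Rprl3, annotated as a ribozyme and at a mean of 6.96 CPM, was called at -1.30 (edgeR adjusted p = 0.00915). Rpph1, also annotated as a ribozyme, had a mean of 2371 CPM, and whether its reads reached the Rprl3 row was not tested. The small RNA gene Gm24447 was called at -1.40 (edgeR adjusted p = 0.00382). Scarna13, a scaRNA of 275 nt, was at -0.26 (adjusted p = 0.415), and the U3 rows Rnu3a and Rnu3b1 had estimates of 0.94 (adjusted p = 0.189) and 0.75 (adjusted p = 0.304). These genes were chosen for their length and class after their values were seen.

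Coding genes of like length were set beside them. Among 29 coding genes with under 450 nt of exon, 22 had a log2 fold change below 0 in the low-yield mutant against wildtype, with a median of -0.45, and edgeR called 2, of which 1 was lower. Of them 16 were histone genes, with a median of -0.62, and the others had a median of 0.05. Coding genes from 450 to below 600 nt had a median of -0.15, and those from 600 to below 1000 nt of 0. The part of transcript length in these differences was not tested.

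**Figure D4:**
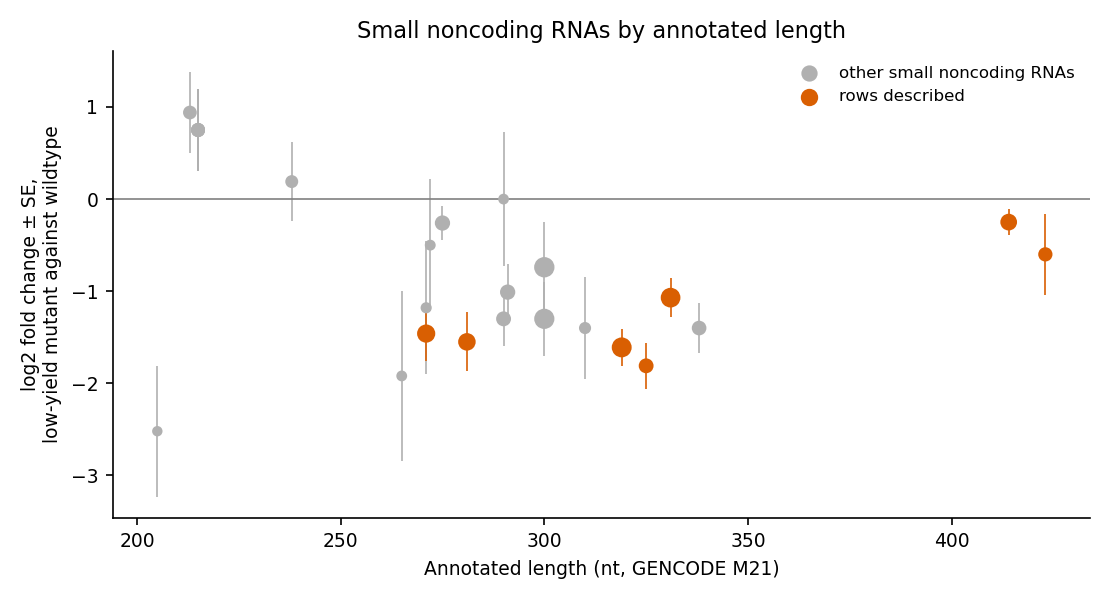
Log2 fold change of the low-yield mutant against wildtype, with its standard error, for annotated small noncoding RNAs of up to 450 nt that passed the filter, by annotated length. Orange points are the rows described here except the Terc row with no annotated length, and a larger point stands for a higher mean CPM. Members and other RNAs of 271 to 338 nt mostly lie below 0, and Scarna2 at 414 nt lies near 0.

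Genes whose proteins work with these RNAs were counted by list, beside the 12.54% of all genes called in the low-yield mutant against wildtype. With lists of 6 to 23 genes and 1 to 4 calls each, none is read as apart from that background. Of 10 tested protein genes of RNase P and RNase MRP, the low-yield mutant against wildtype called 1 higher, Rpp40 at 0.58 (edgeR adjusted p = 0.00797), and 1 lower, Rpp25l at -0.44 (adjusted p = 0.0479). The median was 0.04, against 0 for all genes. Rpp40 was also called in the mutant of group 2 at 0.52 (adjusted p = 0.0243) and in that of group 1 at 0.55 (adjusted p = 0.00771).

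Of 10 genes of the 7SK particle and P-TEFb, Aff4, a scaffold of elongation complexes, was called higher in the low-yield mutant at 0.70 (edgeR adjusted p = 0.000462). Hexim1, which inhibits P-TEFb when bound to Rn7sk, was called lower at -0.29 (adjusted p = 0.0301). Larp7, which binds the end of Rn7sk, was at 0.05 (adjusted p = 0.792) and the capping enzyme Mepce at -0.14 (adjusted p = 0.239). The median of the list was -0.10.

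Of 13 tested genes of telomerase and box H/ACA particles, 1 was called in the low-yield mutant, Tep1 at 0.49 (edgeR adjusted p = 0.0232), and the median was 0.10. Tert, the catalytic subunit, had an estimate of -0.14 (adjusted p = 0.843). Of 6 Y RNA binding genes, Ncl at 0.37 (adjusted p = 0.0237) and Matr3 at 0.31 (adjusted p = 0.0293) were called higher, while Ro60 was at -0.02 (adjusted p = 0.971).

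Of 23 polymerase III initiation genes and subunits, 3 were called higher in the low-yield mutant and 1 lower. The higher ones were Polr3g at 0.49 (edgeR adjusted p = 0.00434), Pou2f1 at 0.43 (adjusted p = 0.00434) and Polr3c at 0.33 (adjusted p = 0.0376). Polr3gl, which replaces Polr3g in an alternative form of the enzyme, was the lower one at -0.51 (adjusted p = 0.0379). Maf1 was at -0.26 (adjusted p = 0.0546), and the median of the list was 0.10. Of 174 other named structured noncoding RNAs in the table, 12 passed the filter and 1, Snora73a, was called lower at -2.52 (adjusted p = 0.0220) from a mean of 0.19 CPM.

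Markers of other cells and of RNA content moved with some of these contrasts. The 10 granulocyte markers summed to 17.4 to 35.9 CPM in wildtype, 138 to 226 CPM in mutant and 172 to 377 CPM in low-yield mutant libraries, with none at 0. The 7 megakaryocyte markers summed to 35.2 to 39.6, 33.2 to 39.8 and 49.5 to 50.8 CPM, with Ppbp at 0 in wildtype. The 10 hepatocyte markers summed to 11.4 to 85.5, 9.14 to 52.0 and 46.8 to 51.4 CPM with none at 0, and the 9 macrophage markers to 0.949 to 3.90, 1.76 to 5.52 and 3.01 to 4.96 CPM with C1qc and Vsig4 at 0 in all 3 groups and C1qa at 0 in the mutant. Rows of biotype rRNA summed to 1580, 5430 and 526 CPM in wildtype, 711, 420 and 1040 CPM in mutant and 7340, 138 and 2570 CPM in low-yield mutant libraries. The mitochondrial rRNA mt-Rnr2 was at 408, 380 and 456 CPM in wildtype, 433, 499 and 332 CPM in mutant and 636, 720 and 345 CPM in low-yield mutant libraries. It was highest in low-yield replicates 1 and 2, where the members summed to 2279 and 1937 CPM, against 3173 CPM in replicate 3. The part of these in the members' differences was not tested.

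In the polyA libraries of group 1 the same RNAs were close to absent. Their sum was 2.92, 2.56 and 6.92 CPM in wildtype and 3.14, 3.00 and 4.01 CPM in mutant libraries. The wildtype mean was 4.13 CPM, against 6326 CPM in the total RNA of group 2. Rpph1 was at 0.367, 0.557 and 0.668 CPM in group 1 wildtype, which is 19 to 39 counts, and the ratio of wildtype means between group 2 and group 1 was 6420. That ratio was 1390 for Rmrp, 938 for Rn7sk, 474 for Scarna2 and 63.0 for Terc. Without wildtype replicate 3 of group 1 it was 2610 for Rmrp and 1560 for Rn7sk, and leaving out replicate 2 gave 929 for Rmrp, alternatives chosen after seeing the data. Scarna10 had 0, 2 and 16 counts in these libraries, so no ratio is given for it. The tables were normalised separately and the mice differ as well as the RNA, so these ratios carry no test.

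**Figure D5:**
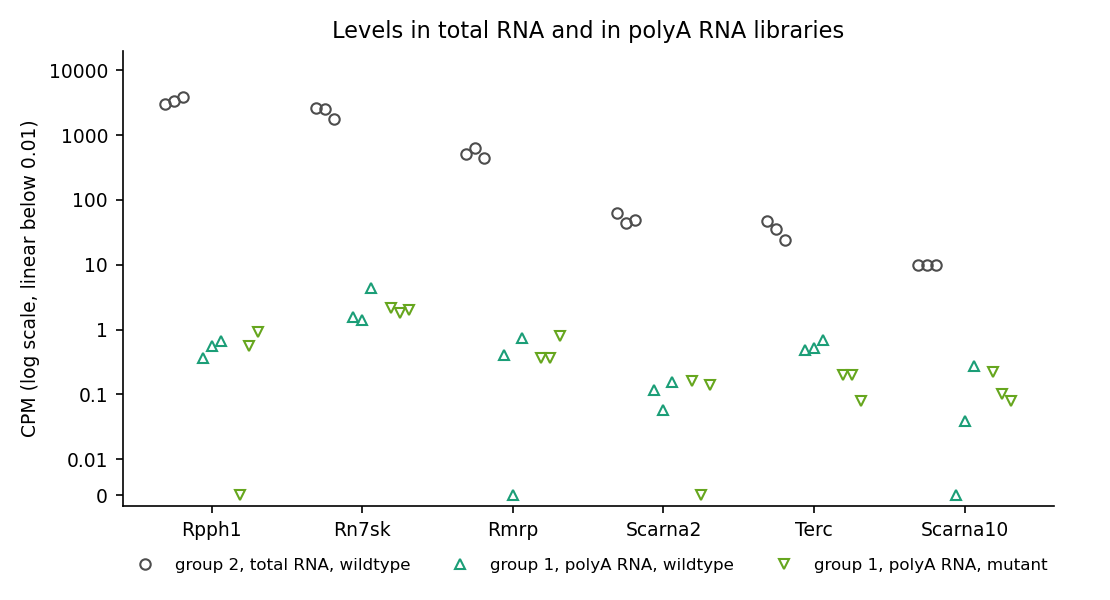
Level of each RNA that had counts, in CPM on a log scale that is linear below 0.01, in wildtype total RNA libraries of group 2 and in wildtype and mutant polyA libraries of group 1, with 1 point per library. Rny1 and Rny3, at 0 in every library, are not drawn. For the RNAs drawn, every total RNA point lies above every polyA point of the same RNA, and Rn7sk has the highest polyA points.

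Of the 10 rows, 4 passed the filter on low counts in group 1, and the mutant against wildtype contrast called 0 of them by edgeR, where 12.6% of 14048 genes were called. At an unadjusted p under 0.05 there was 1 of the 4 rows, beside 3846 of the 14048 genes, a share near the background. That row was ENSMUSG00000118406 of Terc, with 9, 27 and 41 counts in wildtype and 1, 10 and 4 counts in mutant libraries. The groups overlapped, and the log2 fold change was -2.21 (SE 0.819, edgeR adjusted p = 0.096). That fit left out the replicate number, by which the libraries may be paired. With the number as a block the row was called (edgeR adjusted p = 0.0455). Leaving out 1 library in turn gave -3.19 (without mutant replicate 2) to -1.75 (without mutant replicate 1). None of these 6 fits, all without the block, called the row. Rn7sk, at 80, 72 and 256 counts in wildtype and 108, 88 and 100 counts in mutant libraries, had a log2 fold change of -0.33 (SE 0.442, edgeR adjusted p = 0.677).

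Rpph1 had 0, 28 and 47 counts in the group 1 mutant, with a log2 fold change of -0.10 (SE 0.711, edgeR adjusted p = 0.949). It was at -1.30 by voom (adjusted p = 0.524), at -0.91 without mutant replicate 3 and at 0.48 without mutant replicate 1. The first Rmrp row was at -0.44 (SE 0.988, edgeR adjusted p = 0.817). Standard errors of this size leave room for a difference as large as that seen in total RNA. Whether the mutant against wildtype difference itself differed between the groups of mice was tested over 12 libraries by an interaction term. It called 0 of 8 rows by edgeR (adjusted p = 1 for each), where 0.0188% of 15954 genes were called. At an unadjusted p under 0.05 there were 342 genes and 1 row, the second of Rmrp. Only 4 of the 8 rows passed the filter on low counts in group 1 alone. The others entered this fit through their total RNA counts, and polyA counts that low leave it little to test. DESeq2 and voom also called 0 rows.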

How the data were processed

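The authors deposited expected counts per gene, not normalised, in 1 table per group of mice. Per the submitters' processing notes, cutadapt 2.3, FastQC 0.11.8, STAR 2.7.8a, RSEM 1.3.3, MultiQC 1.7 and GRCm38 were used, with no role given. Per the labels' protocols, 151 bp paired ends were read. Which annotation was counted, and whether strand was used, is not given in the sources used here. The deposited expected counts were already whole, so rounding changed nothing. Rows of reporter sequences (5 and 4, with 1 and 4 counts) were left out.

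The test was that of edgeR 4.0.16, run in R 4.3.3 (with TMM, filterByExpr, robust quasi-likelihood fit in its newer mode, two-sided, Benjamini-Hochberg over all genes, threshold 0.05). Group 2 was fitted over 9 libraries, group 1 over 6 and the interaction over 12. DESeq2 1.42.0, voom of limma 3.58.1, other normalisations and filters, a replicate block and leaving out each library were alternatives. As a check of the code, the edgeR fits of groups 1 and 2 were also run on simulated counts, and no result given here rests on that. In group 1, deviations of same-numbered libraries correlated at 0.146 to 0.441 in all 3 pairs, against -0.349 to 0.23 between other numbers. There 4 of 6 libraries correlated best with their own number, so the numbers may pair them. The main fit of group 1 used the group only, and the fit with the replicate block is given beside it.

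Gene positions and sequences are those of GENCODE release 21 of the M series, which holds 99.4% of the rows; lengths of guide RNAs in RefSeq are quoted beside them. Copies were sought with blastn 2.17.0 at 90% identity over 80% of the length. Apart from the Rmrp rows, which match each other, none with counts was found, and the Terc row with no sequence could not be searched. Folding used RNAfold 2.7.2. For each RNA, the 2 genes most like it were named, among genes of at least 2 CPM. Context genes are named from fixed lists, called ones by size of change. The members, lists and ratios were chosen with earlier results of these data known, and support nothing by being chosen.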

Additional observations from a re-analysis of the deposited data

How the results depend on the processing

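Of 8 rows, the low-yield mutant against wildtype called 5, and 2 with the replicate block, under which Rn7sk had an adjusted p of 0.0521 and the Rmrp rows of 0.0685 and 0.0723 at folds about as large (-1.08, -1.51 and -1.59). Leaving out 1 library in turn gave 2 to 6. The mutant against wildtype called 0, and 2 with voom. The low-yield mutant against mutant called 0, with 2 by DESeq2, 3 by voom and 0 to 3 when 1 library was left out. In group 1 the count was 0, and 1 with the replicate block. The interaction called 0 rows under every alternative run. Same-numbered libraries of group 2 correlated in their deviations at -0.068 to 0.241 over 9 pairs, and 5 of 9 libraries correlated best with their own number, so these share only a number and the block is an alternative there.

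Signs turned only among rows that were not called. The log2 fold change of Terc ENSMUSG00000064796 in the group 2 mutant was -0.16 with same-symbol rows summed and -0.24 to 0.74 when 1 library was left out, and that of ENSMUSG00000118406 was -0.41 to 0.08. In group 1, voom gave -1.30 for Rpph1, 0.07 for Rn7sk and 1.17 for the first Rmrp row, which was 0.38 with rows summed. When 1 library was left out there, Rpph1 ran from -0.91 to 0.48, Rn7sk from -0.61 to 0.43 and Rmrp from -0.99 to 0.78. The cause was not tested.

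Over all genes, calls in the mutant of group 2 numbered 942 (774 to 1928 under the alternatives, 425 to 1323 without 1 library). They numbered 1884 in the low-yield mutant against wildtype (1596 to 3348, 900 to 2395), 0 in the low-yield mutant against mutant (0 to 10, 0 to 22), 1766 in group 1 (1643 to 2863, 753 to 1729) and 3 in the interaction (3 to 12, 2 to 3). Rows held 0 to 256 counts in the polyA libraries, which limits the precision of group 1.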
